A study of Mus musculus with 10 samples.

Results

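The genes described here were the 4 neuregulins (Nrg1, Nrg2, Nrg3, Nrg4) and the 4 receptors of the epidermal growth factor receptor family (Egfr, Erbb2, Erbb3, Erbb4), taken by gene symbol from the 54838 genes counted in each library. All 8 were found, and 7 of them were among the 16806 genes with enough reads to be tested. The libraries held RNA precipitated with EGFP-tagged ribosomal protein L10a (translating ribosome affinity purification, TRAP) from the hippocampus of MC-TRAP mice of the C57BL/6 strain. These mice, about 10 weeks old, all carried Drd2-Cre and 1 copy of the Cre-dependent Eef1a1LSL.eGFPL10a allele, and no treatment separated the groups. The dorsal group had 5 libraries from the dorsal part of the hippocampus, the ventral group 5 libraries from the longer ventral part without ventral subiculum, and each library was made from the pooled tissue of 5 mice, so that a replicate is a pool. Drd2-Cre marks hilar mossy cells, the glutamatergic neurons of the dentate hilus, and, as the study describes, also sparse GABAergic interneurons and neurons of the ventral subiculum. The study's limitations grant that a substantial subset of interneurons can be captured too. Per the study's methods, hippocampi of the same mice were divided into the dorsal and ventral parts, so that both groups draw on the same animals, but which dorsal and ventral pools share mice is not stated, and p-values measure the spread between pools.

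Neuregulins are growth factors that bind ErbB receptors by their EGF-like domain, mostly made as membrane-bound precursors that ADAM and BACE proteases can cleave. Erbb4 binds all neuregulins and signals by itself, Erbb3 binds neuregulins but has little kinase activity and needs a partner, Erbb2 binds no ligand and serves as the partner, and Egfr answers to EGF-type ligands rather than to neuregulins. In the hippocampus, neuregulin to Erbb4 signalling is best known at synapses onto GABAergic interneurons, while Erbb3 is best known in cells of the oligodendrocyte and Schwann cell lineages.

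The EGF-like domain is the part of a neuregulin that touches the receptor, and its coding sequence is shown for Nrg3, the leading ligand of these libraries, and beside it for Nrg1 and Nrg4, so that their likeness can be seen. Each sequence runs 5′ to 3′ along the mRNA from the first to the last cysteine codon of the domain, as read from the GENCODE transcript (GRCm38) with the longest coding sequence that holds it, with the cysteine codons in capitals.
Nrg1: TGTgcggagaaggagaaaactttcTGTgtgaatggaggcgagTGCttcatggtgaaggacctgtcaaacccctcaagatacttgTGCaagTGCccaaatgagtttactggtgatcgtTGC
Nrg3: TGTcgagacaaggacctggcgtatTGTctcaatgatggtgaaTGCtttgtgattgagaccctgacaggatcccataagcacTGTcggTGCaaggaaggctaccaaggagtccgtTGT
Nrg4: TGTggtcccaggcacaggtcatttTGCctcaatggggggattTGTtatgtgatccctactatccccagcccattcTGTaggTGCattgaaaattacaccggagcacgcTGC
The domain lies on the minus strand in each case and is split over 2 exons, between chr8:31837698-31849398 for Nrg1, chr14:38668261-39012054 for Nrg3 and chr9:55242177-55280969 for Nrg4. The domain was found by a spacing pattern of 6 cysteines, so that all 3 stretches carry 6 cysteine codons by selection. They lie in 40 codons of Nrg1, 39 of Nrg3 and 37 of Nrg4, and they count among the identical amino acids that follow. Nrg3 and Nrg4 encode the same amino acid at 17 of 37 aligned codons (45.9%), Nrg1 and Nrg3 at 14 of 39 (35.9%) and Nrg1 and Nrg4 at 14 of 37 (37.8%). By the cysteine pattern, the domain was present in all 13 annotated transcripts of Nrg1 with a coding sequence and all 3 of Nrg3, but in only 2 of the 5 of Nrg4. The counts are per gene, so that reads from transcripts with and without the domain cannot be separated.

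Counts on genes ranged from 11138676 to 20594364 per library, and 3 counts, taken as the smallest interpretable level, correspond to 0.141 to 0.282 CPM (counts per megaread of library size, adjusted by TMM). This floor covers counting error only, since the reads were amplified without molecular identifiers. The share of read pairs on no annotated gene was 27.0 ± 5.09% for the dorsal group and 14.4 ± 2.997% for the ventral group (SD, n = 5), with no overlap (two-sided exact permutation test, p = 0.00794). All 10 listed mossy cell markers were present, with sums of 2075 to 2341 CPM dorsally and 2108 to 2428 CPM ventrally. These sums join markers that differed in opposite directions, such as Gria2 at 1143 and 651 CPM and Calb2 at 65.2 and 616 CPM. Similar sums therefore do not show equal mossy cell RNA. Markers of other cells were present as well. GABAergic interneuron markers summed to 3812 to 5002 CPM dorsally and 4544 to 5979 CPM ventrally, and oligodendrocyte markers to 2832 to 3300 and 1061 to 2015 CPM. Astrocyte markers summed to 1967 to 2257 CPM and 851 to 1437 CPM, again without overlap, whereas sums of oligodendrocyte precursor, microglia and endothelial markers stayed at 56.1 CPM or less in each library. Most of the astrocyte sum, with means of 2128 and 1206 CPM, came from Slc1a2 at 1774 and 870 CPM. Of the 9 astrocyte markers, 6 were higher dorsally and 3 ventrally, so that the sum mainly reflects 1 gene. Granule cell, CA pyramidal cell and subiculum marker sums overlapped between the groups. In such precipitates, fewer cells of a type and less RNA per cell cannot be told apart.

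The question put to the family was which ligands and which receptors differed between dorsal and ventral libraries. Nrg3 and Nrg4 among the ligands and Erbb3 among the receptors were enriched in dorsal libraries, Nrg2 and Egfr were enriched in ventral libraries, and neither Nrg1 nor Erbb4 passed the test. The call asked for an adjusted p under 0.05 in edgeR's quasi-likelihood test and for mean levels (CPM + 1) that differed by more than 0.58 on the log2 scale. The 3 dorsal and 2 ventral calls stand against 15.7% of all tested genes called dorsal-enriched and 9.85% called ventral-enriched. Of the called members, Nrg4 and Nrg2 had enough reads to be tested only through the group in which each was called. The largest fold changes were at low levels, and the pair of abundant members, Nrg3 and Erbb4, changed by less than 1 on the log2 scale. Erbb3 was the only member whose 5 dorsal libraries all lay above the 5 ventral ones, a pattern seen in 9.81% of tested genes (8.36% for the opposite order). Since the share of read pairs outside genes differed without overlap, it cannot be told apart from region, and with it as a covariate none of the 7 members passed (edgeR adjusted p from 0.145 to 0.871). A correction for GC content and gene length turned the balance of all calls from 2636 dorsal and 1655 ventral to 2137 and 2600, with a median log2 fold change over all genes of -0.14.

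**Figure D1:**
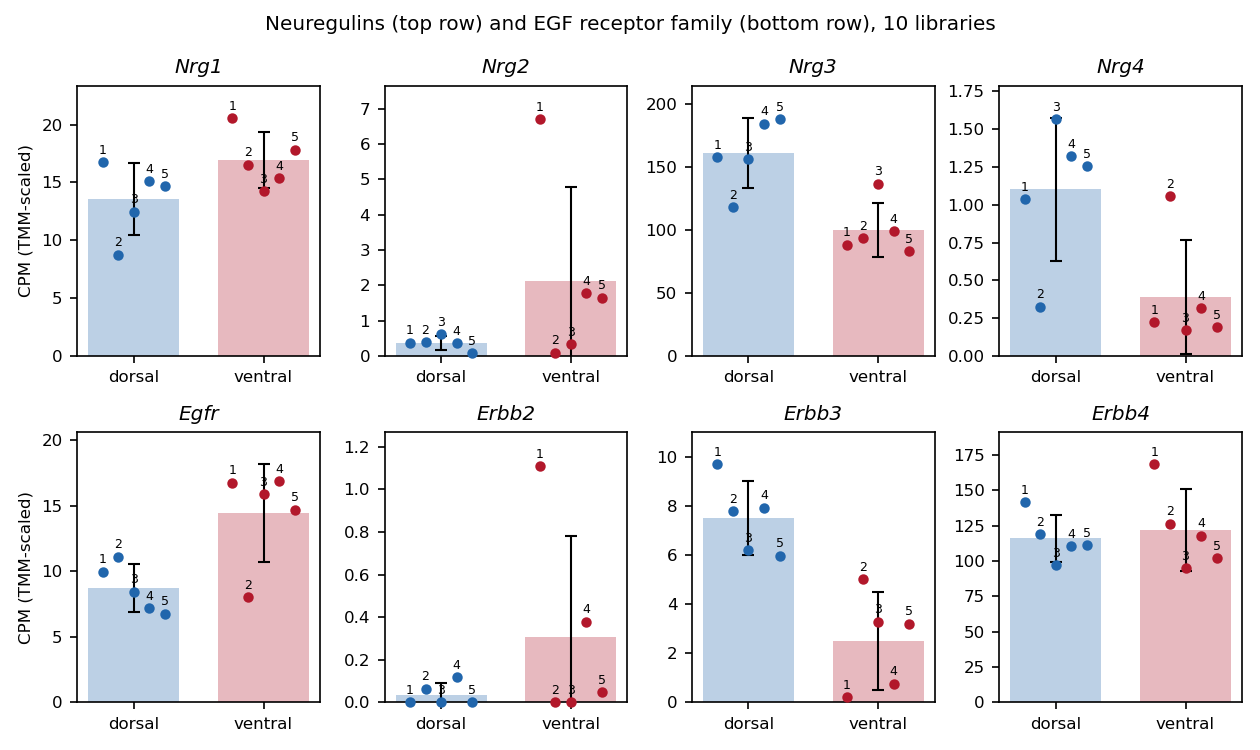
Level of each member in CPM (linear axes from 0) in the 5 dorsal (blue) and 5 ventral (red) libraries; points carry the replicate number, bars are group means and whiskers the SD, ending at 0 where they would pass it. Nrg3 and Erbb4 stand far above the others, and the groups separate fully for Erbb3 alone.

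Nrg3, a ligand of Erbb4 made almost only in the nervous system, was the most abundant neuregulin and was higher in dorsal libraries. It stood at 158, 118, 156, 184 and 188 CPM in dorsal libraries 1 to 5 and at 88.3, 93.6, 137, 99.3 and 82.9 CPM in ventral libraries 1 to 5. Only dorsal library 2 and ventral library 3 crossed into the other group's range, with the other 4 libraries of each group apart. The means were 161 ± 28.0 and 100.2 ± 21.3 CPM (SD, n = 5), a log2 fold change of 0.69 ± 0.16 (SE, 95% interval 0.36 to 1.02, edgeR adjusted p = 0.00457). The call held in each of 10 fits that left out 1 library, with log2 fold changes from 0.63 to 0.82. With the GC and length correction the log2 fold change was 0.52 (0.65 above the median of all genes) and the fold threshold was missed at an edgeR adjusted p of 0.0175. Nrg3 (ENSMUSG00000041014) spans 1104 kb of the minus strand at chr14:38368952-39473088. Of the 56 tested protein-coding genes that span at least 1 Mb, 11 (19.6%) were called dorsal-enriched and 2 (3.57%) ventral-enriched, against 9.01% and 13.3% of the 6504 genes under 25 kb, and the part of gene span in the result was not tested. Nrg3 also appears among the dorsal genes that the study names from these same libraries, so that its direction here is not independent of that choice.

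Nrg1, the prototype neuregulin of interneuron and myelin development, was far less abundant than Nrg3. It was measured at 16.7, 8.77, 12.5, 15.1 and 14.7 CPM in dorsal libraries 1 to 5 and at 20.6, 16.6, 14.3, 15.4 and 17.8 CPM in ventral libraries 1 to 5. Between 14.3 and 16.7 CPM the ranges overlapped, with 3 dorsal and 3 ventral libraries there, dorsal library 2 lowest of all and ventral library 1 highest. The log2 fold change was -0.35 ± 0.19 (SE, 95% interval -0.76 to 0.059, edgeR adjusted p = 0.17), which leaves room for a ventral excess of this size or for none. With the GC and length correction it was -0.52 (-0.38 relative to the median of all genes, edgeR adjusted p = 0.0433), short of the fold threshold. The gene (ENSMUSG00000062991) spans 1070 kb of the minus strand at chr8:31814551-32884029.

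Nrg4, a small neuregulin best known as a factor secreted by brown fat that acts through Erbb4, was close to the detection floor. Its counts were 11, 5, 23, 22 and 16 in dorsal libraries 1 to 5, or 1.03, 0.325, 1.57, 1.32 and 1.26 CPM. In ventral libraries 1 to 5 the counts were 4, 12, 2, 5 and 4, or 0.222, 1.06, 0.169, 0.316 and 0.189 CPM. Dorsal library 2 fell among the ventral values and ventral library 2 among the dorsal ones. The log2 fold change was 1.64 ± 0.61 (SE, 95% interval 0.38 to 2.91, edgeR adjusted p = 0.0422), and the log2 ratio of mean CPM + 1 was 0.60, just past the threshold. Only 1 ventral library was over 1 CPM. Nrg4 thus passed the filter on low counts through the dorsal libraries alone, so that its call could hardly go in the other direction. The call was lost in 8 of 10 fits that left out 1 library, where it held only without dorsal library 2 or ventral library 2, and in 8 of 14 other settings. The library kit does not mark strand, and 368 bases (6.06%) of the exons of Nrg4 (ENSMUSG00000032311, chr9:55220222-55326844, minus strand) lie opposite Fbxo22, itself at 32.2 CPM dorsally and 41.3 CPM ventrally.

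Nrg2, a neuregulin made by granule cells and interneurons, was the one ligand called ventral-enriched, and that call rested largely on 1 library. Its counts were 4, 6, 9, 6 and 1 in dorsal libraries 1 to 5 and 121, 1, 4, 28 and 35 in ventral libraries 1 to 5. Thus 3 ventral libraries lay above all dorsal ones, at 6.71, 1.77 and 1.65 CPM, and the other two ventral libraries lay within the dorsal range of 0.0786 to 0.613 CPM. It passed the filter on low counts through those 3 ventral libraries alone. The log2 fold change was -2.66 ± 0.79 (SE, 95% interval -4.31 to -1.01, edgeR adjusted p = 0.0154). Without ventral library 1, which held 121 of the 189 ventral counts, it was -1.58 (edgeR adjusted p = 0.0683) and no longer called. Nrg2 (ENSMUSG00000060275) lies on the minus strand at chr18:36017652-36197380, and its exons had a GC content of 63.1%, the highest of the 8 members.

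**Figure D2:**
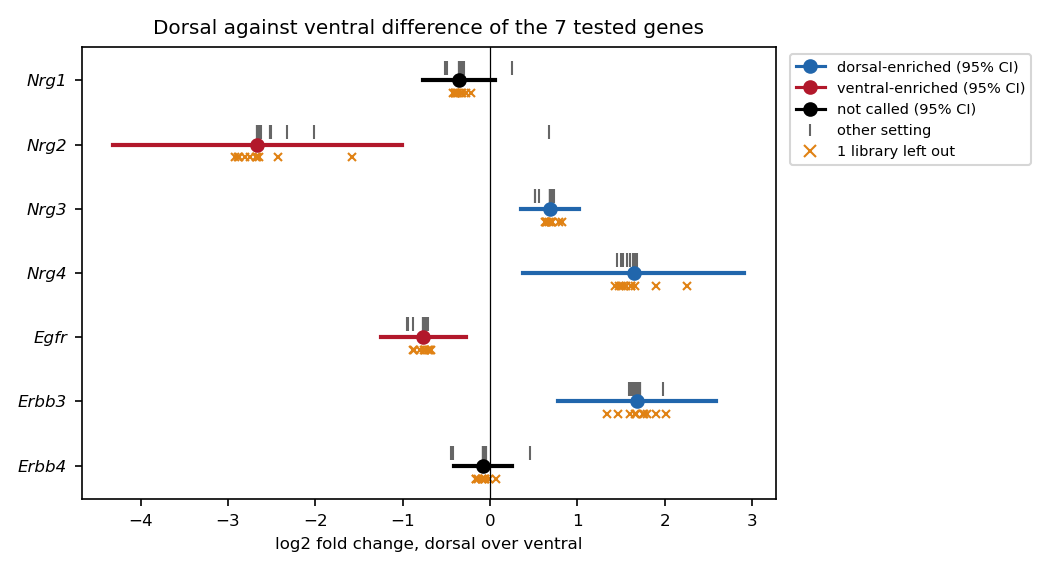
Log2 fold change of dorsal over ventral libraries for the 7 tested members; dots and bars are edgeR estimates with 95% intervals, grey ticks are other settings and orange crosses are fits with 1 library left out. Nrg3, Nrg4 and Erbb3 stay right of 0 and Egfr left of 0 throughout, whereas Nrg1, Nrg2 and Erbb4 each cross 0 under at least 1 alternative.

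Erbb4, the main neuregulin receptor of neurons, was the most abundant receptor and did not differ detectably between the groups. It stood at 142, 119, 96.9, 111 and 111 CPM in dorsal libraries 1 to 5 and at 168, 127, 94.8, 118 and 102 CPM in ventral libraries 1 to 5. Ventral library 1 was the only library outside the dorsal range on the high side and ventral library 3 the only one on the low side. The means were 116 ± 16.4 and 122 ± 28.8 CPM (SD, n = 5), with a log2 fold change of -0.080 ± 0.15 (SE, 95% interval -0.41 to 0.25, edgeR adjusted p = 0.719). With the GC and length correction the log2 fold change was -0.44 (-0.31 relative to the median of all genes, edgeR adjusted p = 0.0392), short of the fold threshold. Of the 14 interneuron markers, 3 were called ventral-enriched and 1 dorsal-enriched, and their sums ran from 3812 CPM in dorsal library 3 to 5979 CPM in ventral library 1. Gad2, the most abundant of them, was at 2853 and 3174 CPM (edgeR adjusted p = 0.324) and Sst at 454 and 715 CPM (edgeR adjusted p = 0.000986). The part of interneuron RNA in the Erbb4 values was not tested. Erbb4 (ENSMUSG00000062209) spans 1076 kb of the minus strand at chr1:68032186-69108059.

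Egfr, the receptor of EGF-type ligands and a gene of astrocytes and glial precursors, was higher in ventral libraries. It was measured at 9.97, 11.1, 8.45, 7.21 and 6.76 CPM in dorsal libraries 1 to 5 and at 16.8, 8.01, 15.9, 16.9 and 14.7 CPM in ventral libraries 1 to 5. All ventral libraries but library 2 lay above all dorsal libraries. The log2 fold change was -0.76 ± 0.23 (SE, 95% interval -1.25 to -0.27, edgeR adjusted p = 0.0203). Leaving out dorsal library 4, dorsal library 5 or ventral library 4 raised the edgeR adjusted p to 0.0616, 0.0611 and 0.0564. Of the 9 astrocyte markers, 1 was called ventral-enriched and 5 dorsal-enriched, the direction opposite to Egfr, with the glutamate transporter Slc1a2 the most abundant at 1774 and 870 CPM (edgeR adjusted p = 6.84e-05). The next most abundant of them, Aldoc, lay on the side of Egfr at 133 and 196 CPM (edgeR adjusted p = 0.00532, short of the fold threshold), as did the ventral call, Aldh1l1, named after its value was seen, at 1.17 and 4.16 CPM (adjusted p = 0.0164). Of the 5 oligodendrocyte precursor markers, C1ql1 alone was called, as dorsal-enriched. Egfr (ENSMUSG00000020122) lies on the plus strand at chr11:16752203-16918158.

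Erbb3, the neuregulin receptor that needs a partner to signal, was higher in dorsal libraries. It was measured at 9.69, 7.80, 6.20, 7.93 and 5.97 CPM in dorsal libraries 1 to 5 and at 0.222, 5.02, 3.29, 0.759 and 3.21 CPM in ventral libraries 1 to 5. The lowest dorsal library lay above the highest ventral one, and within the ventral group libraries 1 and 4 were far below the other 3. The means were 7.52 ± 1.51 and 2.501 ± 1.98 CPM (SD, n = 5), a log2 fold change of 1.69 ± 0.42 (SE, 95% interval 0.78 to 2.59, edgeR adjusted p = 0.0087). The call held in each of 10 fits that left out 1 library, with log2 fold changes from 1.34 to 2.02, and was lost with the quasi-likelihood dispersions of edgeR 3 (adjusted p = 0.0526). Of the 12 oligodendrocyte markers, 6 were also called dorsal-enriched and none ventral-enriched, with Cldn11, a tight junction gene of myelin, at 284 and 149 CPM (edgeR adjusted p = 0.00697). The lineage factor Sox10, named here after its value was seen, was at 4.13 and 7.42 CPM (edgeR adjusted p = 0.0623). Per 1000 CPM of summed oligodendrocyte markers, a ratio computed after the values were seen, Erbb3 was at 1.90 to 3.15 CPM dorsally and 0.181 to 4.73 CPM ventrally, and the groups overlapped. The part of oligodendrocyte RNA in the Erbb3 result was not tested beyond this. Erbb3 (ENSMUSG00000018166) lies on the minus strand at chr10:128567523-128589652.

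**Figure D3:**
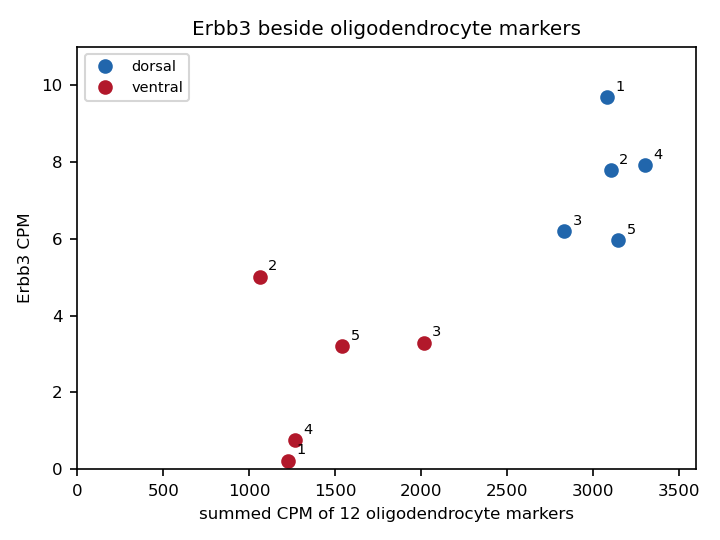
Erbb3 level (CPM) against the summed level of 12 oligodendrocyte markers (CPM) in each library, numbered by replicate, with both axes from 0. The dorsal libraries lie at 2832 CPM of markers or more and the ventral libraries at 2015 CPM or less, and within the ventral group the library with the lowest marker sum has the highest Erbb3.

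Erbb2, the partner without a ligand of its own, was barely detected and was not tested. Its counts were 0, 1, 0, 2 and 0 in dorsal libraries 1 to 5 and 20, 0, 0, 6 and 1 in ventral libraries 1 to 5. Of the 27 ventral counts, 20 came from ventral library 1, and 8 of the 10 libraries were at or below the floor of 3 counts. With no filter on low counts, edgeR gave an adjusted p of 0.164 over 36531 genes. Its exons (ENSMUSG00000062312, chr11:98412470-98437716, plus strand) share 9 bases with Mien1, which was at 32.5 and 41.7 CPM.

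For the comparison of ligands with receptors, levels were divided by exon length, since CPM grows with the length of a gene. Per kilobase, Nrg3 was highest at 23.6 ± 4.11 CPM dorsally and 14.7 ± 3.13 CPM ventrally, followed by Erbb4 at 9.38 ± 1.33 and 9.87 ± 2.33 CPM (SD, n = 5). Nrg3 lay above Erbb4 in 5 of 5 dorsal and 4 of 5 ventral libraries, and the exception was ventral library 1. Next came Nrg1 at 1.31 and 1.64 CPM per kilobase, which exceeded Egfr in 7 of 10 libraries by exon length, but in 10 by the length of the longest transcript and in 9 by coding length. In dorsal libraries Erbb3 (1.25 CPM per kilobase) followed and then Egfr (0.768), in 5 of 5 libraries, whereas by coding length Egfr (2.34) came before Nrg4 (2.24) and Erbb3 (1.87). In ventral libraries Egfr (1.28) came before Nrg2 (0.673) and Erbb3 (0.416), with overlapping ranges for each pair. Nrg4 and Erbb2 were lowest in ventral libraries, or Erbb3 and Erbb2 by coding length, and Nrg2 and Erbb2 were lowest in dorsal ones by each length. Among the 16806 tested genes, the mean level per kilobase of Nrg3 lay above 85.8% of genes and that of Erbb4 above 74.8%, whereas Nrg4 lay above 1.7%.

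**Figure D4:**
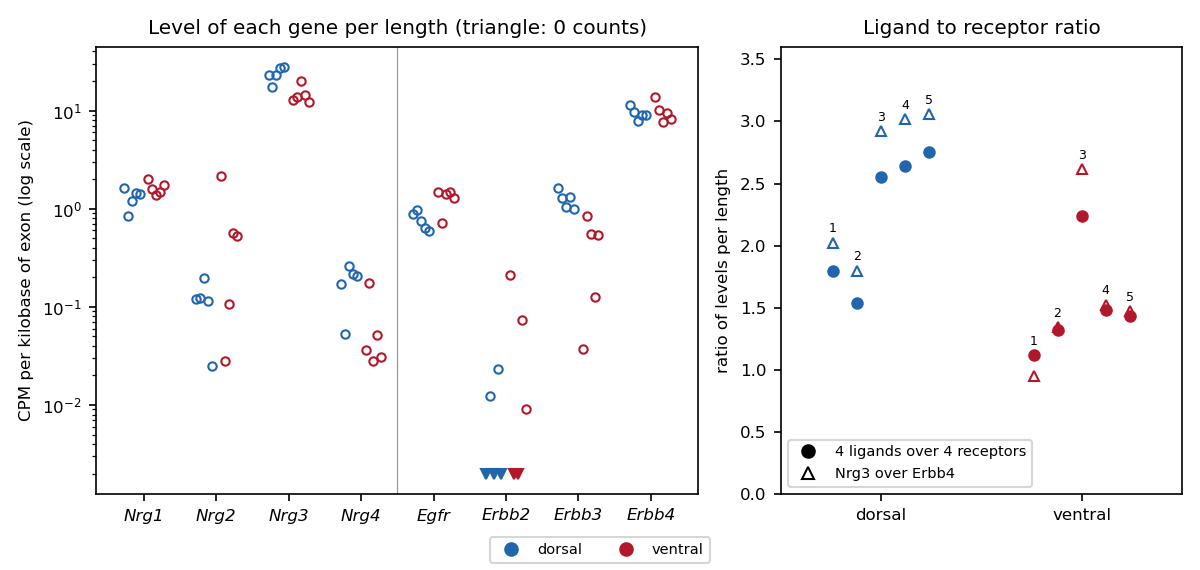
Left, level of each member per kilobase of exon (CPM, log axis; triangles at the foot are libraries with 0 counts) in dorsal (blue) and ventral (red) libraries. Right, ratio of summed ligand to summed receptor levels (dots) and of Nrg3 to Erbb4 (open triangles) in each library. Each ratio lies higher in all 5 dorsal libraries than in every ventral library except ventral library 3.

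The summed ligand level, made up to 93.6 ± 0.840% by Nrg3 dorsally and 85.7 ± 6.44% ventrally, was 25.2 ± 4.38 CPM per kilobase in the dorsal group and 17.1 ± 2.73 in the ventral group. The summed receptor level, of which Erbb4 made up 82.3 ± 1.60% and 84.4 ± 3.67%, was 11.4 ± 1.65 and 11.6 ± 2.26 CPM per kilobase (SD, n = 5). The ratio of ligand to receptor level was 1.80, 1.54, 2.56, 2.64 and 2.76 in dorsal libraries 1 to 5 and 1.12, 1.32, 2.24, 1.48 and 1.43 in ventral libraries 1 to 5. Ventral library 3 lay between dorsal libraries 1 and 3, and the other 4 ventral ratios lay below all dorsal ones. Nrg3 alone over Erbb4 gave 2.02, 1.80, 2.92, 3.02 and 3.06 in dorsal and 0.951, 1.34, 2.61, 1.53 and 1.47 in ventral libraries. These ratios carry no test, because they repeat the tested values of Nrg3 and Erbb4. They depend on the length used. With the longest transcript in place of all exons, the mean ratio of ligands to receptors was 3.77 in dorsal and 2.49 in ventral libraries, and with coding length 2.48 and 1.58.

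Of 95 genes in 5 lists around the receptors, 88 were tested, and 13 (14.8%) were called dorsal-enriched and 6 (6.82%) ventral-enriched, shares near or below those of all tested genes given above. Among the other EGF family ligands, 3 of 7 were tested and all 3 were called. Tgfa, an Egfr ligand, was at 47.6 ± 3.21 CPM dorsally and 17.4 ± 2.13 CPM ventrally (log2 fold change 1.46 ± 0.13, SE, edgeR adjusted p = 1.21e-05), and its groups did not overlap. Egf was at 3.73 and 0.794 CPM (edgeR adjusted p = 0.0199), and Hbegf, a ligand of Egfr and Erbb4, at 3.41 and 7.12 CPM (edgeR adjusted p = 0.0218). The groups of Egf and of Hbegf overlapped. Egf ran from 0.715 to 8.65 CPM dorsally and, close to the floor, from 0.166 to 1.14 CPM ventrally. The ligands Tgfa and Egf were thus called in the direction opposite to their receptor Egfr, and Hbegf in the same direction. The median log2 fold change of the 3 was 1.46, against -0.0044 over all tested genes.

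Of 14 genes for the cleavage of neuregulins and ErbB receptors, 13 were tested, of which 3 were called on the dorsal side and 1 on the ventral side (median log2 fold change 0.43). Over all tested genes the called shares were 15.7% dorsal and 9.85% ventral. The 3 dorsal genes were metalloproteases of the ADAM family that shed membrane-bound ligands. Adam17 was at 16.9 ± 3.31 and 5.28 ± 1.997 CPM (log2 fold change 1.72 ± 0.24, SE, edgeR adjusted p = 0.000228), Adam19 at 20.9 and 9.80 CPM (1.14, adjusted p = 0.000681) and Adam10 at 107 and 66.3 CPM (0.68, adjusted p = 0.0123). Bace2, a relative of the beta-secretase Bace1, was at 0.438 ± 0.343 and 5.03 ± 1.96 CPM (log2 fold change -3.47 ± 0.47, SE, edgeR adjusted p = 7.62e-05). Bace1 itself, named after its value was seen, was more abundant at 74.3 and 66.1 CPM and was not called (log2 fold change 0.17, edgeR adjusted p = 0.366). The groups of Adam17, Adam19 and Bace2 did not overlap, and Bace2 was over 1 CPM in 1 dorsal library and in all 5 ventral ones. Bace2 thus passed the filter on low counts through the ventral libraries alone, so that its call could hardly go in the other direction.

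Downstream of the receptors, 39 of 40 adaptors and kinases were tested, 1 was called dorsal-enriched and 4 ventral-enriched, and the median log2 fold change was -0.12. Beside these counts stand 15.7% dorsal and 9.85% ventral calls over all tested genes, so that the ventral count was near the share of all genes. Nck1, an adaptor to the actin cytoskeleton, was at 27.5 and 13.7 CPM (edgeR adjusted p = 0.00287). The ventral calls were the adaptor Grb7 at 0.137 and 1.81 CPM (edgeR adjusted p = 0.00098), the adaptor Shc2 at 27.6 and 45.2 CPM (adjusted p = 0.00449), the PI3-kinase subunit Pik3cd at 10.9 and 18.8 CPM (adjusted p = 0.00972) and the transcription factor Stat5b at 6.63 and 13.5 CPM (adjusted p = 0.00362). Grb7, at 0.300 CPM or less in each dorsal library, lay near or below the floor there and passed the filter on low counts through the ventral libraries alone, so that its call could go in 1 direction only.

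Of 20 genes that restrain or turn over ErbB receptors, 19 were tested, of which 4 were called on the dorsal side and none on the ventral side (median log2 fold change 0.041). For this list and the next, the shares over all tested genes were 15.7% dorsal and 9.85% ventral. The called regulators were Lrig1, which promotes receptor degradation, at 4.01 and 1.47 CPM (edgeR adjusted p = 0.0106), the ubiquitin ligase Cblb at 96.8 and 62.7 CPM (adjusted p = 0.00197), the ERK pathway inhibitor Spry1 at 16.6 and 8.01 CPM (adjusted p = 0.0283) and the ERK phosphatase Dusp6 at 71.8 and 46.2 CPM (adjusted p = 0.00821). Spry1 ran from 13.3 to 18.7 CPM dorsally and from 3.68 to 21.7 CPM ventrally, so that its highest library was a ventral one. Spred1, the most abundant of the list, was at 274 ± 10.3 and 272 ± 37.6 CPM (edgeR adjusted p = 0.949). All 14 synaptic and nuclear partners of Erbb4 were tested, 3 were called dorsal-enriched and none ventral-enriched, with a median of 0.20. These were the syntrophin Sntb2 at 54.2 and 35.7 CPM (edgeR adjusted p = 0.00192), the transcriptional coactivator Yap1 at 11.1 and 5.74 CPM (adjusted p = 0.00599) and the signalling adaptor Tab2, which binds the intracellular part of Erbb4, at 165 and 104 CPM (adjusted p = 0.0025). The postsynaptic scaffold Dlg2, the most abundant of these, was at 620 ± 55.2 and 552 ± 55.6 CPM (edgeR adjusted p = 0.192).

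**Figure D5:**
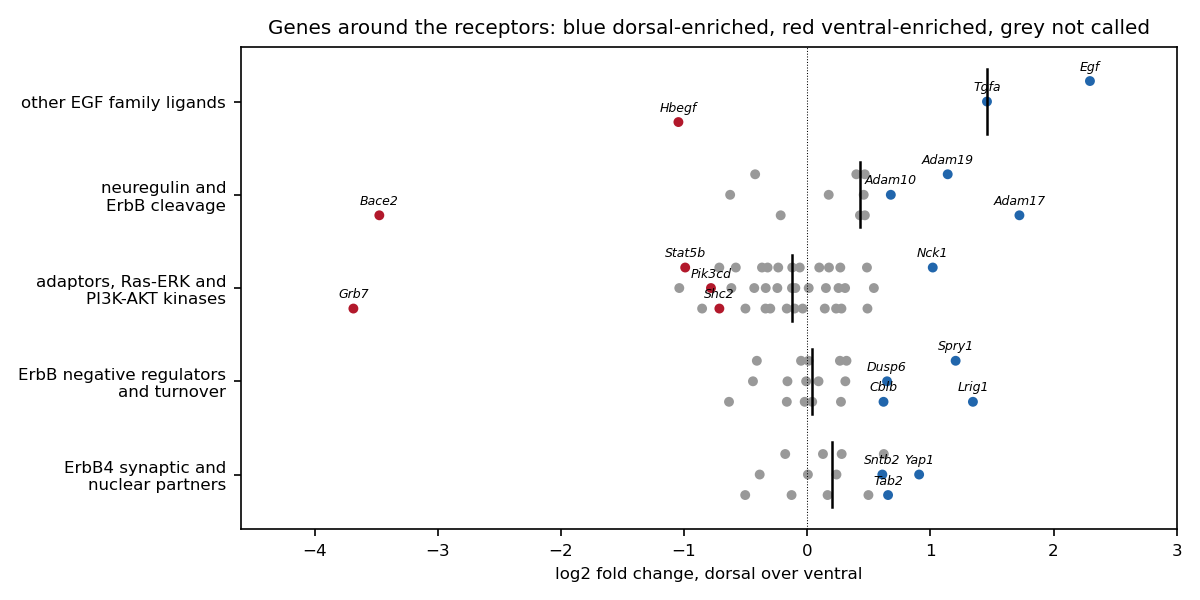
Log2 fold change of dorsal over ventral libraries for the 88 tested genes of 5 lists around the receptors; each dot is a gene, blue called dorsal-enriched, red ventral-enriched and grey not called, and black lines are list medians. Called on the dorsal side were 4 of 19 tested regulators and 3 of 14 Erbb4 partners, against 15.7% of all tested genes. Called on the ventral side were 4 of 39 adaptors and kinases, against 9.85%.

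Genes whose level followed the top ligand and the top receptor over the 10 libraries were listed among 8762 tested genes with a mean of at least 10 CPM, as a description. For Nrg3, the 5 highest correlations (Pearson, log2 of CPM + 1) were with Pls1, an actin-bundling protein gene (r = 0.952), the deubiquitinase Cyld (0.951), the RNA uridylyltransferase Tut4 (0.948), Wdr26 (0.946) and Wwc2 (0.943). After subtraction of each group's mean they were 0.823 to 0.855. For Erbb4 they were with the casein kinase Csnk1g3 (r = 0.955), the muscarinic receptor Chrm2 (0.939), the potassium channel partner Kcnip4 (0.926), Hykk (0.924) and Ube4a (0.923), and within groups 0.922 to 0.961. Chrm2 had means of 18.4 and 18.5 CPM and Csnk1g3 of 159 and 159 CPM, with no call for either, as for Erbb4. The points share libraries, depth and region, and the highest of many correlations are large by selection.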

How the data were processed

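Ribosome-bound RNA of 5 dorsal and 5 ventral hippocampal pools was amplified with the Ovation kit, which does not mark strand, and sequenced as paired ends of 50 bp. Per the submitters' processing notes, the authors aligned reads to GRCm38 with STAR 2.5.2b and counted them with HTSeq 0.7.2. The annotation release and the strand setting are not given in the sources used here. Each deposited file holds the unnormalized whole-number counts of 1 library by Ensembl gene.

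Groups and replicate numbers came from the labels. Genes over 1 CPM in 2 or more libraries were tested in R 4.3.3 with edgeR 4.0.16 (TMM, quasi-likelihood test, Benjamini-Hochberg adjustment over 16806 genes). Standard errors are the absolute log2 fold change over the square root of F. Symbols, positions and lengths came from GENCODE M21. Overlaps with neighbouring genes were examined for the 8 members. No library was a duplicate of another in its group. Library measures were compared by exact permutation (SciPy 1.17.1).

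Named genes were the 8 members, listed pathway genes that were called or most abundant in their list, leading markers, and the 5 genes most correlated with Nrg3 and with Erbb4. A few genes that this rule names are not reported here. Members and lists were chosen with earlier results of these data known. Alternatives were other size factors, filters, tests (DESeq2 1.42.0, edgeR's likelihood-ratio test, edgeR 3 dispersions), thresholds, a replicate block, GC and length offsets (mgcv 1.9.3), both together, the read share outside genes as a covariate, protein-coding genes alone, other gene lengths, and each library left out.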

Additional observations from a re-analysis of the deposited data

Results flagged for a closer look

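In 23 sets of 5 libraries, 3 had 1 library set off from the other 4 by a gap beyond Dixon's 95% limit. For normally distributed values chance gives about 1 such set in 20, a rate that need not hold for skewed values at low counts. Nrg2 stood at 6.71 CPM in ventral library 1, where the next ventral library had 1.77 CPM. Nrg4 stood at 1.06 CPM in ventral library 2, inside the dorsal range, where the other 4 ventral libraries had 0.316 CPM or less. Egfr stood at 8.01 CPM in ventral library 2, also inside the dorsal range, where the other 4 ventral libraries had 14.7 CPM or more. Ventral library 2 had in addition the highest ventral Erbb3 (5.02 CPM) and the lowest ventral Nrg2 (0.088 CPM). Ventral library 1 had the lowest Erbb3 (0.222 CPM) and the highest Nrg1, Nrg2, Erbb2 and Erbb4 of the 10 libraries. Counts on genes were 18735199 and 11618625 in ventral libraries 1 and 2, within the range of the other libraries. What sets their values apart was not tested.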

How the results depend on the processing

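Of the 3 dorsal and 2 ventral calls among the members, other size factors, thresholds and protein-coding genes alone changed none. The dorsal calls fell to 2 with no expression filter, CPM above 1 in at least 5 libraries, DESeq2's Wald test, the likelihood-ratio test or the replicate block, to 1 with edgeR 3 dispersions, with the GC and length correction and with that correction plus the replicate block, and to 0 with the read share outside genes as a covariate. The ventral calls fell to 1 with CPM above 1 in at least 5 libraries and with edgeR 3 dispersions, and to 0 with the covariate. Leaving out 1 library left 2 to 3 dorsal and 1 to 2 ventral calls. The covariate reversed the sign of Nrg1 (0.26), Nrg2 (0.68, adjusted p = 0.871) and Erbb4 (0.46), none of them past the test, and the fit without ventral library 1 reversed Erbb4 (0.067, where leaving out 1 library gave -0.16 to 0.067). Over all genes, 2600 were called ventral-enriched with the GC and length correction and 2640 with the block as well, against 1655. With the covariate 834 dorsal and 339 ventral calls were left, and with protein-coding genes alone 1647 dorsal calls, where fewer genes were tested. Otherwise the causes were not tested.

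Libraries with the same replicate number did not deviate together (mean r = 0.0159 over 5 pairs, against -0.00207 for other pairs), and 2 of 5 dorsal libraries correlated best with their own number, so the numbers were not taken as pairs. With the replicate block, 2656 dorsal and 1674 ventral genes were called, 2 of the members dorsal and 2 ventral, and Nrg4 was not among them (adjusted p = 0.101). Depth limits Nrg2, Nrg4 and Erbb2, whose lower group lay at a few counts per library.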
